A study of Mus musculus with 8 samples.

Results

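The Schlafen genes are a family of interferon-responsive genes in mouse. They were followed here in primary mammary tumours and in bone metastases of the same animals. All probe sets whose single gene symbol in the platform annotation was Slfn1, Slfn2, Slfn3, Slfn4, Slfn5, Slfn8 or Slfn9 were taken, which gave 11 probe sets of 7 genes among 34945 probe sets of 18193 genes. A probe set is a group of short probes on the array whose signals are summarised to 1 value. Slfn5 had 3 probe sets, Slfn1 and Slfn9 had 2 each, and the other 4 genes had 1 each. The study grew 4T1.2, a mouse mammary carcinoma line that spreads to bone spontaneously, in Balb/c mice, and profiled tumour epithelial cells isolated from the mammary gland tumour and from the spine. There were 8 arrays, 4 of primary tumours and 4 of matched spine metastases, and both tumours with the same replicate number came from 1 mouse. No allele, drug or other treatment is named for either group, and the sources used here give neither the age of the mice nor the way the tumour cells were isolated. All arrays of both groups derive from a single tumour line, and RNA of both groups went through 2 rounds of amplification before hybridisation. Values are log2 signals, so that a difference of 1 is a doubling.

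Schlafen proteins share an N-terminal core that is related to RNA-cleaving and divergent AAA ATPase folds, and many members are induced by type I interferon through STAT and IRF factors. The short members Slfn1 and Slfn2 consist of little more than this core, Slfn3 and Slfn4 are of intermediate length, and the long members Slfn5, Slfn8 and Slfn9 add a C-terminal helicase-like region. The family is best known from thymocytes, T cells and myeloid cells, where Slfn1 slows growth when overexpressed, Slfn2 is needed to keep T cells and monocytes quiescent, and Slfn4 changes with macrophage activation and myeloid differentiation. The genes lie side by side on chromosome 11, and several members are close copies of each other, so that a probe set of one can take up RNA of another.

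RNA quality and cell content differed between the groups, so their part in the values below cannot be told apart from that of the site. The drop from the 3' to the 5' actin control probe set, a measure of how intact or how fully copied the RNA is, was 1.08 to 1.90 on primary arrays and 4.55 to 6.18 on metastasis arrays, in log2 units, with no overlap (exact permutation test of the 8 arrays, two-sided, p = 0.0286, adjusted p = 0.0286 over 2 controls). Because the actin difference separates the groups completely, a fit with it as a covariate has wide errors, given beside the 2 genes that changed. The labelled epithelial cells could be checked against 12 epithelial markers such as Krt8 and Epcam. Their summed signal was 13.80 to 13.89 on primary arrays. On metastasis arrays 1 to 4 it was 10.24, 13.08, 11.24 and 13.72, so that metastases 1 and 3 carried little of it. The sum mostly follows Krt8 and Krt18, the brightest of the list in primary tumours. In metastases 1 to 4 Krt8 was 7.34, 12.39, 9.8 and 12.97, and Krt18 was 6.05, 10.95, 8.49 and 11.86. Epcam did not follow, at 8.34, 8.45, 8.65 and 9.35. Cdh1 was higher in bone in mice 1 and 3, by 0.68 and 1.29. The low sum therefore describes these keratins and not all 12 markers. Schlafen results past the threshold are given with and without metastases 1 and 3, the 2 arrays of low summed signal. Where RNA comes from a mixture, fewer cells of a type and less RNA per cell cannot be told apart.

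The promoters of the members differed in whether they held the core letters of an interferon-stimulated response element, the site bound by IRF and STAT complexes. RefSeq windows of assembly GRCm38.p6, from 250 bases before to 50 bases after each gene's start, were at hand for all 7 genes. The core searched for was GAAA, any 2 bases and GAAA, on both strands and free to overlap other motifs. It was found in 3 of the 7 windows, those of Slfn5, Slfn8 and Slfn9, against 3.44% of 32851 mouse promoter windows of the same length. The core of a gamma-activated site, TTCNNNGAA, was found in 0 of the 7 and in 8.30% of all windows. Of the 20 genes of the interferon response list used below that had a window, 11 held the response element core. The windows of these 3 long members are shown because they carry the match, and those of Slfn2 and Slfn1 because these 2 genes changed. The match is in capitals. The windows are Slfn5 at chr11:82951852-82952151 on the plus strand, Slfn8 at chr11:83020761-83021060 and Slfn9 at chr11:82991781-82992080 on the minus strand, and Slfn2 at chr11:83064862-83065161 and Slfn1 at chr11:83116570-83116869 on the plus strand.
Slfn5: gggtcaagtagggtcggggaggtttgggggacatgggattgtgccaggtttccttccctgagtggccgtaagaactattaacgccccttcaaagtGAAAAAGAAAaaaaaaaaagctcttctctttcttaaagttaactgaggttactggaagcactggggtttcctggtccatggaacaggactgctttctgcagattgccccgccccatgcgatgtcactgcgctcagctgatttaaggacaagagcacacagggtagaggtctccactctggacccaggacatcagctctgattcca
Slfn8: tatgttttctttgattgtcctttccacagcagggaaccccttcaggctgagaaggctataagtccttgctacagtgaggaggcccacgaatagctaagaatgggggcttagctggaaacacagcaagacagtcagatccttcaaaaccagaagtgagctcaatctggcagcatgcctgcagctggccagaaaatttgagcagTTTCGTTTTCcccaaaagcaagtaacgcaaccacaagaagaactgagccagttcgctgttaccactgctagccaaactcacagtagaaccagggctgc
Slfn9: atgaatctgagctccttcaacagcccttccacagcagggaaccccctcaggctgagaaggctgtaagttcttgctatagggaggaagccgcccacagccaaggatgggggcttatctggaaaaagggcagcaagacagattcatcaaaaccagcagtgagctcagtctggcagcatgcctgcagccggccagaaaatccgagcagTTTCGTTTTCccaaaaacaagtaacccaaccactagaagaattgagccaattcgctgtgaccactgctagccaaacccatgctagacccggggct
Slfn2: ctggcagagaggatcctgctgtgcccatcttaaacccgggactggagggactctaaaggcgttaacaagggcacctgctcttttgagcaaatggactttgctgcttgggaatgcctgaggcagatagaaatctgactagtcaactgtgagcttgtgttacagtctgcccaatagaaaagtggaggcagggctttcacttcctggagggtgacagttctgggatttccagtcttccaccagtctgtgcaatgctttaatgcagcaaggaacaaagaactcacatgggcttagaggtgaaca
Slfn1: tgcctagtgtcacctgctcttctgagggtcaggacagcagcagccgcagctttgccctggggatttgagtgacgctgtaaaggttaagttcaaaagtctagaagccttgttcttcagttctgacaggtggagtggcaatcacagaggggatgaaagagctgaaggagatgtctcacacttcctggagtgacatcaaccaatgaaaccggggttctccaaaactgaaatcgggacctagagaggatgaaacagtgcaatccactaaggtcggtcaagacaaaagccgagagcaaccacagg
In Slfn5 the match GAAAAAGAAA spans bases -155 to -146 from the start. In Slfn8 and Slfn9 the same letters, TTTCGTTTTC on the gene's strand, lie at -48 to -39 and at -45 to -36. The Slfn8 and Slfn9 windows were 80.8% identical over an alignment of 312 positions, whereas the other 20 pairs of members were 46.5% to 53.0% identical in the same global alignment. A match to these letters is a description of the window, and the absence of a match says only that these letters are not in it.

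Slfn2 and the brighter Slfn1 probe set were called lower in bone metastases, and no Schlafen probe set was called higher, in the limma fit of all 8 arrays. These calls depended on the arrays and settings used, as given below. Of the 11 probe sets, 2 were lower and 0 were higher at a limma adjusted p under 0.05, with Benjamini-Hochberg adjustment over all 34945 probe sets, and 9 did not pass. At an unadjusted p under 0.05 limma gave 3 lower, with a Slfn5 probe set added, and 1 higher, a Slfn9 probe set. The called share of 18.2% compares with 20.6% of all probe sets called in either direction, with 11.9% of all probe sets called lower and 8.72% called higher. A count of 2 in 11 is near that background, so it is the sizes in single genes, and not the number called, that the values below describe. The median log2 fold was -0.13 over the Schlafen probe sets and 0.09 over all probe sets. The groups did not overlap for 1 of the 11 probe sets, that of Slfn2, against 28.3% of all probe sets, and 5 of the 11 moved the same way in all 4 mice, against 43.0%. The probe set of Slfn3, the second of Slfn1 and the dimmest of Slfn5 lay under the array median on all 8 arrays. The dimmer Slfn9 probe set did so on 7 arrays and the called Slfn1 probe set on 3, and folds at such low signal are not exact.

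**Figure D1:**
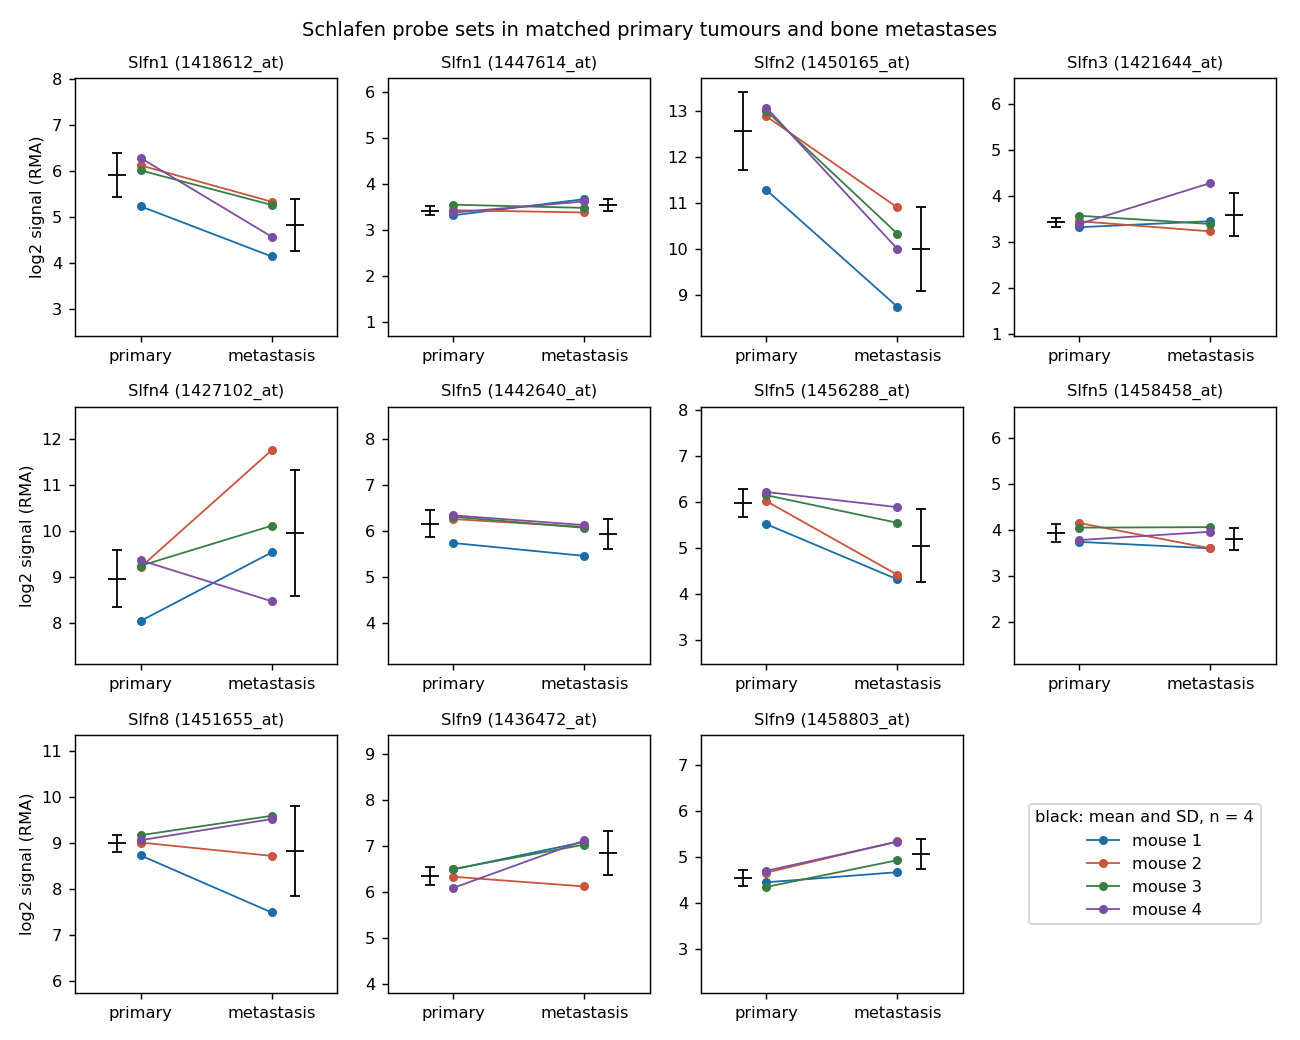
Log2 RMA signal of each of the 11 Schlafen probe sets in the primary tumour and the bone metastasis of each mouse. Lines join the 2 tumours of a mouse, black bars are the mean and SD of 4 arrays, and every panel spans the same number of log2 units. All 4 lines of Slfn2 and of the brighter Slfn1 probe set slope down, and those of Slfn4 and Slfn8 part.

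Among the short members, Slfn2, which keeps T cells and monocytes quiescent, showed the largest difference of the family in the limma fit without covariates. Its log2 signal was 11.29, 12.89, 13.01 and 13.08 in primary tumours 1 to 4. In metastases 1 to 4 it was 8.75, 10.91, 10.34 and 10.01. The lowest primary tumour, that of mouse 1, still lay above the highest metastasis, that of mouse 2, and mouse 1 had the lowest signal in both tumours. The group means were 12.57 ± 0.85 and 10 ± 0.91 (SD, n = 4 each), a log2 fold of -2.56 with a standard error (SE) of 0.53, or 5.91-fold lower (limma adjusted p = 0.0124). Within the mice the differences were -2.54, -1.98, -2.67 and -3.07, a narrower spread than that of the signals themselves. The fall was no longer past the threshold without mouse 3 (log2 fold -2.53, limma adjusted p = 0.082) or without mouse 4 (-2.40, 0.0833). It also missed the threshold without the 2 metastases of low summed epithelial signal (-2.11, SE 0.57, 0.0556) and with the actin control as a covariate (-1.34, SE 2.03, 0.762).

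Slfn1, the founding member, which slows thymocyte growth, fell less and less securely. Its brighter probe set, 1418612_at, measured 5.24, 6.13, 6.02 and 6.29 in primary tumours 1 to 4. The metastases gave 4.15, 5.34, 5.27 and 4.58. All 4 mice were lower in bone, but the groups overlapped, since the primary tumour of mouse 1 lay under the metastases of mice 2 and 3. The log2 fold was -1.08 (SE 0.33), 2.12-fold lower, from 5.92 ± 0.47 to 4.83 ± 0.57 (SD, n = 4 each, limma adjusted p = 0.0478). This call lies just inside the threshold. It was lost in 9 of 12 fits that left out 1 array or 1 mouse (limma adjusted p 0.0296 to 0.226 over the 12). Those that kept it left out metastasis 2, primary tumour 1 or mouse 1. The call was also lost after scaling to the 75th percentile (log2 fold -0.88, limma adjusted p = 0.0859) and without metastases 1 and 3 (-0.96, 0.116). With the actin covariate the log2 fold was -0.24 (SE 1.23, limma adjusted p = 0.933). The other Slfn1 probe set, 1447614_at, was dim, at 3.43 ± 0.10 in primary tumours and 3.55 ± 0.13 in metastases (SD, n = 4 each), with a log2 fold of 0.12 (SE 0.13, limma adjusted p = 0.535). The within-array difference between the 2 Slfn1 probe sets changed by -1.20 ± 0.61 (SD, n = 4 mice) between the tumours, which did not pass an exact permutation test (two-sided p = 0.0571, adjusted p = 0.143 over 5 pairs of probe sets of 1 gene).

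**Figure D2:**
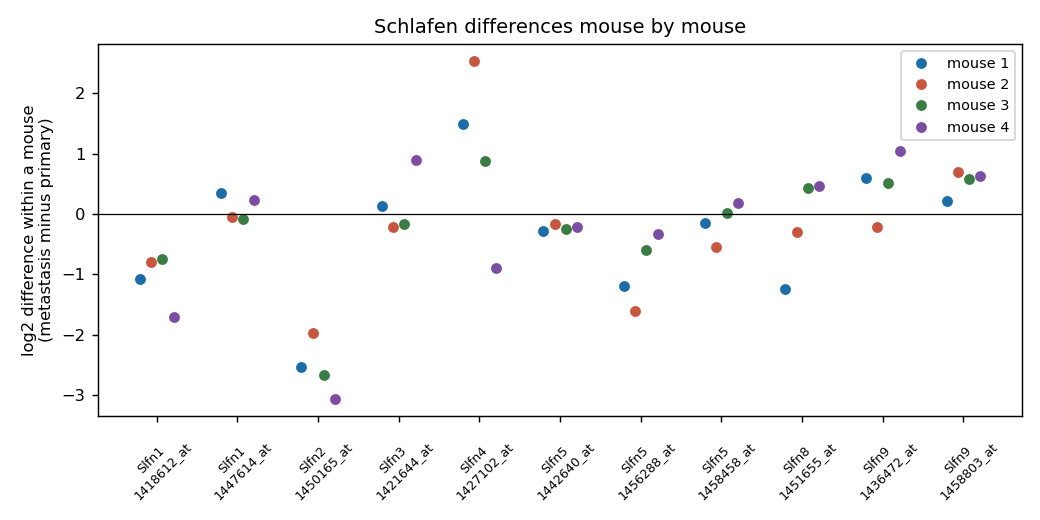
Log2 difference between the metastasis and the primary tumour of each mouse, for each of the 11 Schlafen probe sets. Points are single mice. Slfn2 lies between -3.07 and -1.98 in all 4 mice, whereas Slfn4 runs from -0.89 to 2.54.

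The intermediate members did not pass the test. Slfn4, a myeloid member tied to macrophage activation, measured 8.05, 9.22, 9.25 and 9.37 in primary tumours 1 to 4. Its metastases gave 9.54, 11.76, 10.12 and 8.48, the widest spread of the family. Mice 1, 2 and 3 had the higher signal in bone, by 1.49, 2.54 and 0.88, and mouse 4 had the lower one, by -0.89. The log2 fold was 1.00 (SE 0.64, limma adjusted p = 0.295), with a 95% interval of -0.45 to 2.46 that includes 0. It was 0.41 without metastasis 2 and 1.64 without mouse 4, and 5.92 (SE 1.69, limma adjusted p = 0.365) with the actin covariate. Slfn3, a close relative of Slfn4 best studied in T cells and gut epithelium, lay between 3.23 and 4.28 on all 8 arrays, with the highest value in metastasis 4. Its log2 fold was 0.16 (SE 0.23, limma adjusted p = 0.649) and turned to -0.07 without that array. A further probe set names both Slfn4 and Slfn3 and was not counted or tested, and its log2 means were 4.08 ± 0.35 in primary tumours and 3.57 ± 0.17 in metastases (SD, n = 4 each).

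None of the 6 probe sets of the long members passed either. Slfn5, an interferon-induced nuclear protein, had 3 probe sets, all with a log2 fold below 0 and of different size. Probe set 1456288_at measured 5.52, 6.02, 6.15 and 6.22 in primary tumours, and 4.32, 4.42, 5.55 and 5.89 in metastases. It was lower in all 4 mice, by -1.20, -1.60, -0.60 and -0.33, with metastases 1 and 2 below the rest. The log2 fold was -0.93 (SE 0.37, limma adjusted p = 0.114), and it passed only without metastasis 4 (-1.21, adjusted p = 0.0417). The brightest Slfn5 probe set, 1442640_at, was also lower in all 4 mice but by only -0.28, -0.17, -0.24 and -0.21. Its log2 fold was -0.22 (SE 0.21, limma adjusted p = 0.469). The third, 1458458_at, had a log2 fold of -0.13 (SE 0.17, limma adjusted p = 0.621). The first and the brightest of these differed in their change by 0.71 ± 0.59 (SD, n = 4 mice, exact permutation p = 0.0571, adjusted p = 0.143 over 5 pairs).

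Slfn8, a long member expressed in lymphoid and myeloid cells, split between the mice. Primary tumours measured 8.74, 9.02, 9.18 and 9.07, a narrow range. Metastases measured 7.50, 8.73, 9.60 and 9.53, so mice 1 and 2 had less in bone and mice 3 and 4 had more. The log2 fold of -0.16 (SE 0.43, 95% interval -1.15 to 0.82, limma adjusted p = 0.81) has no settled direction: it was 0.29 without metastasis 1, 0.18 after quantile normalization and 0.04 after scaling to the 75th percentile.

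Slfn9, the close copy of Slfn8, had the higher signal in bone on both probe sets, without a call. Its brighter probe set, 1436472_at, measured 6.50, 6.34, 6.51 and 6.10 in primary tumours. In metastases it gave 7.10, 6.13, 7.04 and 7.13, with mouse 2 alone lower in bone. The log2 fold was 0.49 (SE 0.24, limma adjusted p = 0.189), and without metastasis 2 it was 0.73 and passed (adjusted p = 0.0132). Probe set 1458803_at was higher in all 4 mice, by 0.22, 0.69, 0.58 and 0.63, with a log2 fold of 0.53 (SE 0.19, limma adjusted p = 0.08). It passed without metastasis 1 (0.66, adjusted p = 0.0274), without metastases 1 and 3 (0.80, 0.0243) and after scaling to the 75th percentile (0.73, 0.0483), a setting that moves the median fold of all probe sets from 0.09 to 0.29 and the share of higher calls from 42.2% to 55.5%. With the actin covariate the brighter probe set turned to -0.94. The change of the 2 Slfn9 probe sets differed by only -0.04 ± 0.61 (SD, n = 4 mice, exact permutation p = 0.971).

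The members' changes were then compared with each other, using the brightest probe set of each gene and the within-array difference between genes. In all 6 pairs with Slfn2 the difference of log2 folds had the same sign in all 4 mice. Slfn2 changed more than Slfn1 by 1.48 ± 0.31 on the log2 scale, and differed from Slfn4 by -3.57 ± 1.01, from Slfn9 by -3.05 ± 0.96, from Slfn3 by -2.72 ± 0.92, from Slfn8 by -2.40 ± 1.08 and from Slfn5 by -2.34 ± 0.44 (SD, n = 4 mice each). Each of these 6, and the differences of Slfn1 from Slfn4 (-2.09 ± 1.10) and from Slfn5 (-0.86 ± 0.45), had an exact permutation p of 0.0286, the smallest that 8 arrays allow. That test does not use the pairing of the tumours. With arrays permuted within mice, each of these 8 pairs had an exact permutation p of 0.125, the smallest that 4 mice allow. None of the 21 pairs passed after Benjamini-Hochberg adjustment over the 21 (lowest adjusted p = 0.075, by the exact permutation test, with 8 pairs at an unadjusted p under 0.05). Slfn8 and Slfn9 differed by -0.65 ± 0.83 (SD, n = 4 mice, exact permutation p = 0.286, adjusted p = 0.353), although the difference had the same sign in all 4 mice.

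Along the chromosome the 2 genes that fell are neighbours within the family. In the RefSeq order the members run Slfn5, Slfn9, Slfn8, Slfn2, Slfn1, Slfn4 and Slfn3, with the pseudogene Slfn10-ps between Slfn8 and Slfn2. Slfn14, which is not among the listed members, lies beyond Slfn3 at the end of the cluster. Slfn10-ps had a log2 fold of -0.65 (SE 0.25, limma adjusted p = 0.105), and Slfn5os, an opposite-strand transcript at Slfn5, had one of 0.58 (SE 0.19, limma adjusted p = 0.0608). Outside the cluster, 0 of the 5 nearest measured genes on each side (10 in all) passed by limma, against 21.8% of 18193 genes by their brightest probe set, with 4 higher and 0 lower at an unadjusted p under 0.05. The median log2 fold of these 10 was 0.37. Unc45b, a myosin chaperone gene on the side of Slfn5, had a log2 fold of 1.19 (SE 0.45, limma adjusted p = 0.0938). Nle1 and Rad51d, further out on the same side, had folds of -0.44 (SE 0.46) and 0.44 (SE 0.21), Fndc8 0.31 (SE 0.20) and Unc45bos 0.15 (SE 0.31). On the side of Slfn3, Ap2b1, an adaptor of clathrin-coated vesicles, had -0.43 (SE 0.22), Rasl10b 0.84 (SE 0.28), Gas2l2 0.46 (SE 0.19), 1700020L24Rik 0.16 (SE 0.17) and Taf15 0.68 (SE 0.24).

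**Figure D3:**
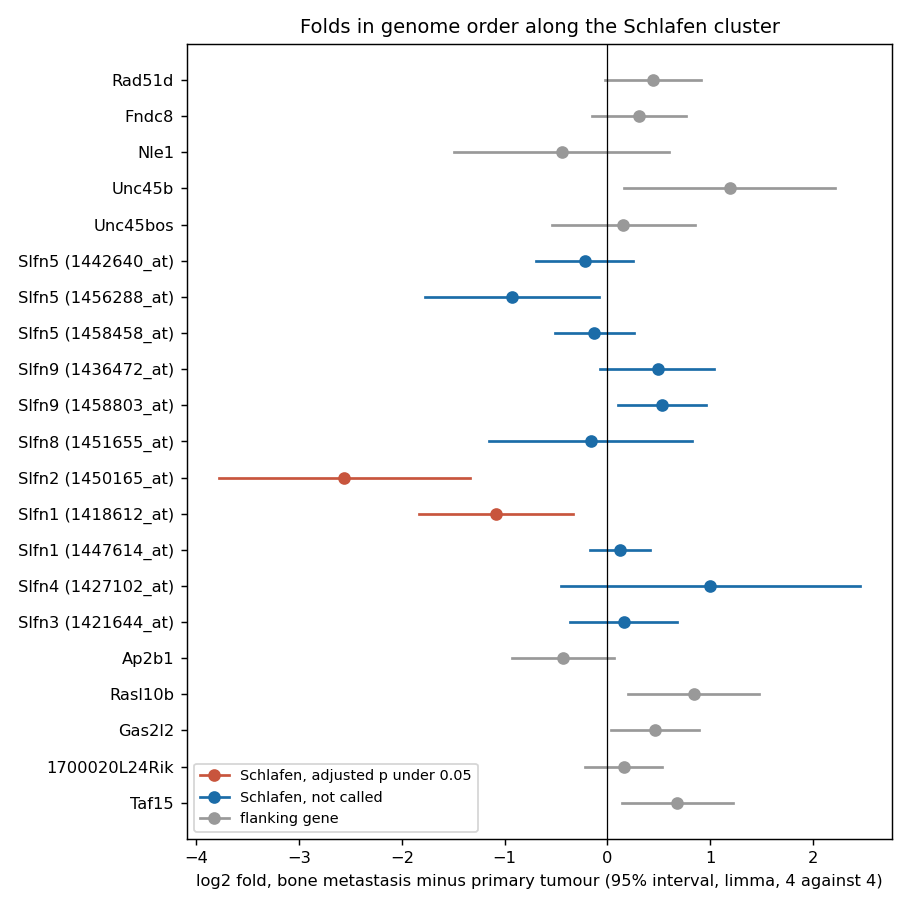
Log2 fold of bone metastasis against primary tumour with its 95% interval from limma (4 arrays against 4), for the Schlafen probe sets and the 5 measured genes on each side, in genome order and not to scale. Slfn2 at -2.56 and Slfn1 at -1.08 are the 2 called values, and none of the 10 flanking genes was called.

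Most measured genes of the pathway that is known to induce the family fell in metastases. Of 31 listed interferon response genes 29 were measured. Of these, 20 fell, 0 rose and the remaining 9 missed the threshold, with a median log2 fold of -1.52 against 0.09 over all genes (12.1% of all genes were called lower and 9.72% higher). At an unadjusted p under 0.05 limma gave 24 lower and 0 higher. Ifit2, which binds viral RNA, had a log2 fold of -3.72 (SE 0.40). Oasl1, an oligoadenylate synthetase-like protein, had -3.10 (SE 0.44), and Usp18, which removes ISG15 from proteins and dampens receptor signalling, had -2.31 (SE 0.33). This pathway was known from earlier results on these arrays to be lower, so its count is no independent evidence. Of 17 listed signalling genes and regulators 16 were measured, with 6 lower, 2 higher and 8 not called. The 2 higher, named after their values were seen, were the factors Irf3 (0.90, SE 0.20) and Irf2 (0.83, SE 0.22), and the count was 1 without metastasis 2 or 3, without both metastases 1 and 3, or without any 1 of the primary tumours. Irf7, the factor that amplifies type I interferon responses, was 8.86, 9.23, 9.31 and 9.67 in primary tumours and 6.77, 7.17, 7.41 and 7.56 in metastases. Like Slfn2 it did not overlap between the groups, and its log2 fold was -2.04 (SE 0.23, limma adjusted p = 0.00114). The receptor chain Ifnar2 fell by 1.44 (SE 0.41) and the kinase Jak1 by 2.34 (SE 0.67), whereas Irf9 and Stat2, which carry the signal to response elements, had log2 folds of -0.52 (SE 0.20, limma adjusted p = 0.0971) and -0.22 (SE 0.30, 0.615). The count of 6 lower was 3 without primary tumour 2, 3 or 4, without metastasis 3, or without metastases 1 and 3. The 3 members whose windows hold the response element core, Slfn5, Slfn8 and Slfn9, were among those not called.

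Genes tied to what Schlafen proteins do were few. Rnh1, the inhibitor of the angiogenin-type ribonucleases from which Slfn2 shields transfer RNAs, fell by 1.84 on the log2 scale (SE 0.37, limma adjusted p = 0.00964). Ccnd1, the cyclin that Slfn1 represses when overexpressed, fell by 1.71 (SE 0.35, limma adjusted p = 0.0101) and thus went the same way as Slfn1. Ang, which encodes angiogenin, had a log2 fold of 0.31 (SE 0.18, limma adjusted p = 0.24) and Rpa1, a single-stranded DNA-binding subunit bound by a human Schlafen protein, one of 0.00 (SE 0.30, 0.999). Of 14 measured proliferation genes 6 were lower and 0 higher, with a median log2 fold of -0.75. They included Pcna, the replication clamp (-2.22, SE 0.67), and Bub1, a spindle checkpoint kinase (-1.94, SE 0.42). With the mouse as a block 3 were lower, and 2 or 3 were without metastasis 3 or 4 or primary tumour 1, 3 or 4.

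Markers of blood cells, in which the family is mostly studied, moved with the groups. Of 12 macrophage markers 10 were lower and 0 higher, with a median log2 fold of -2.91, and Mrc1 (-4.21, SE 0.70), Fcgr1 (-3.78, SE 0.47) and Msr1 (-3.53, SE 0.58) were among those that fell. At an unadjusted p under 0.05 limma gave 11 lower and 0 higher. Their summed log2 signal was 15.12, 15.82, 15.48 and 15.92 in primary tumours 1 to 4 and 12.87, 14.33, 14.18 and 14.42 in metastases 1 to 4. Mouse 1 was the lowest in both tumours for this sum, as it was for Slfn2, Slfn1 and the summed interferon response genes (14.68 against 14.81 to 14.93 in primary tumours, 13.07 against 13.31 to 13.72 in metastases). The order of the other metastases differed. Metastasis 4 had the highest macrophage and interferon response sums (14.42 and 13.72), but Slfn2 and Slfn1 were highest in metastasis 2 (10.91 and 5.34). In metastasis 4 Slfn2 was 10.01 and Slfn1 was 4.58. Of 9 neutrophil and granulocyte precursor markers measured 6 were higher and 0 lower, led by Ngp (6.33, SE 0.39), S100a9 (5.33, SE 0.38) and S100a8 (4.57, SE 0.40). Their summed signal was 11.55 to 12.07 in primary tumours and 14.33, 15.34, 15.11 and 14.64 in metastases 1 to 4. Metastasis 2 had the highest sum and the highest Slfn4, but the lowest sum was in metastasis 1 and the lowest Slfn4 of the metastases in metastasis 4 (8.48).

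The B lineage list rose in bone as well, whereas the share of T and NK markers called was near that of all genes. Of 9 measured B lineage markers 6 were higher and 0 lower, with a summed signal of 9.26 to 9.94 in primary tumours and 11.58 to 15.35 in metastases, led by Ebf1 (6.98, SE 0.35), Vpreb1 (6.66, SE 1.26) and Cd79b (4.31, SE 0.66). Of 11 T and NK markers 2 (18.2%, against 21.8% of all genes) were higher and 0 lower, Gzma (2.19, SE 0.27) and Klrd1 (2.08, SE 0.36), with sums of 9.38 to 10.03 and 10.01 to 10.46. By group means, Slfn2 and Slfn1 were lower in the metastases, the group with more B lineage and granulocyte signal and less macrophage signal. This restates the contrast of the 2 groups. Of the 12 epithelial markers 3 were lower and 0 higher, Krt19 (-3.36, SE 0.64), Cldn4 (-1.55, SE 0.34) and Spint1 (-1.44, SE 0.35). This share of 25.0% compares with 21.8% of all genes called in either direction and 12.1% called lower. Without metastases 1 and 3, 1 epithelial marker was lower. By limma 0 of 4 erythroid and 0 of 8 endothelial markers were called, with 1 and 0 at an unadjusted p under 0.05, and their sums were 7.32 to 7.54 against 7.40 to 8.11 and 8.57 to 9.16 against 8.63 to 9.34. RMA gives no value of 0, so no marker is at 0. The part of these cell types in the Schlafen folds was not tested.

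**Figure D4:**
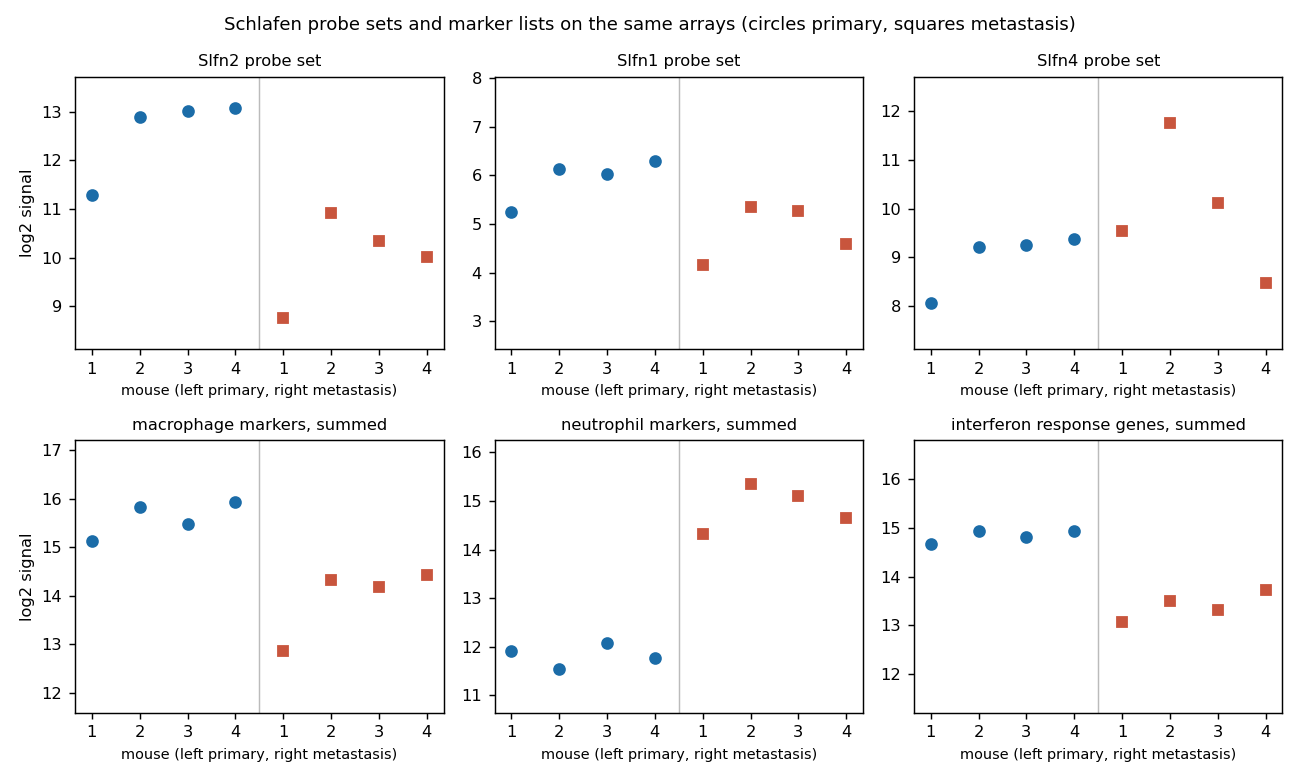
Log2 signal of Slfn2 (1450165_at), Slfn1 (1418612_at) and Slfn4 (1427102_at) on each array, above the log2 of the summed signal of 12 macrophage, 9 neutrophil and 29 interferon response genes on the same arrays. Circles are primary tumours and squares metastases of mice 1 to 4, and each panel spans the same number of log2 units. Slfn2, Slfn1 and the macrophage and interferon response sums are lowest in mouse 1 in either tumour, and the neutrophil sum is 14.33 or more in every metastasis. Among the metastases, the macrophage and interferon response sums are highest in metastasis 4, and Slfn2 and Slfn1 in metastasis 2.

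The genes whose signal followed each member most closely were listed by Pearson's r over the 8 arrays among 18183 other genes, as a description. No test was run, and the highest of so many r values over 8 arrays can be high by selection alone. The 8 arrays come from 4 mice and fall into 2 groups, so r after subtracting the group means is given as well for Slfn2 and for pairs of members, and for all 21 genes listed it was 0.93 or more. Slfn2 was followed most closely by Slc8b1 (r = 0.992, 0.99 after group means), Plaur (0.992, 0.97) and Fcna (0.989, 0.98). Slc8b1 is a mitochondrial cation exchanger, Plaur the urokinase receptor and Fcna the lectin ficolin A. For Slfn1 the closest were the lysosomal transporter Slc15a3 (r = 0.995), the phagosomal metal transporter Slc11a1 (0.984) and the phospholipase Pla2g7 (0.984). Of these 6 genes 5 were lower in metastases, with log2 folds of -1.63 to -3.13, and Slc15a3 had -1.28 (limma adjusted p = 0.0591). Slfn2 and Slfn1 also followed each other (r = 0.97, and 0.95 after group means). Slfn4 ran with Mepe (r = 0.968), Themis2 (0.963) and Atp8b4 (0.928), Slfn8 with Tmem229a (0.98), Prom2 (0.971) and Ubl7 (0.967), and Slfn9 with Eme1 (0.965), Usp30 (0.965) and Fn3k (0.956). Slfn5 ran with Ttc12 (r = 0.981), Rab2a (0.958) and Mybpc3 (0.953), and Slfn3 with Trub1 (0.997), Sox6os (0.994) and Apobec4 (0.987). The Slfn3 signal was under the array median on all 8 arrays. It was 4.28 in metastasis 4 and 3.23 to 3.57 on the others, so its r values rest largely on that array. None of the 15 genes listed for Slfn4, Slfn8, Slfn9, Slfn5 and Slfn3 was called by limma. The close copies Slfn8 and Slfn9 did not run together (r = -0.05, and 0.03 after group means). Slfn3 and Slfn4 had an r of -0.47 (-0.70 after group means), but the low Slfn3 signal leaves this r uncertain.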

How the data were processed

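Each deposited value is a log2 signal of 1 probe set on 1 array. The submitters' processing notes name RMA, which corrects background, normalizes the arrays and summarises probes. The sources used here give no version. Of 45101 probe sets, 64 were controls, 932 had several gene symbols, 9160 had none listed and 34945 were tested. Array medians ran from 5.16 to 5.17 in primary tumours and from 5.23 to 5.42 in metastases. The number of arrays limits the precision.

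Metastases were tested against primary tumours in limma 3.58.1 (R 4.3.3; lmFit and eBayes, two-sided, no block, no filter), with Benjamini-Hochberg adjustment over all tested probe sets and a threshold of 0.05. The fit was checked on simulated data with independent noise, which held no effect of mouse or RNA quality. Gene lists and flanking genes used each gene's brightest probe set, in a fit over 18193 genes. Single differences used exact permutation tests (Python 3.11.15, scipy 1.17.1). No label gives a batch. Pairing comes from the design text (same mouse), and deviations of same-mouse tumours from their group means correlated at 0.16, 0.00, 0.03 and -0.10 over probe sets. Those of tumours from different mice correlated at -0.11 to 0.19, so the same-mouse values lay within that range.

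The members and lists were chosen with earlier results of these data known. Named were all Schlafen genes, all flanking genes, the 3 largest called folds of each list with 1 direction in all 4 mice (all genes of lists of under 6), Irf7, Irf9 and Stat2, and the 3 genes most correlated with each member. Alternatives were a mouse block, scaling to the 75th percentile, quantile normalization, a filter on dim probe sets, 1 probe set a gene, an eBayes trend, an actin covariate, and each array or mouse left out. Leaving out metastases 1 and 3 together was chosen after seeing the data. Some listed genes were not analysed here.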

Additional observations from a re-analysis of the deposited data

Results flagged for a closer look

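Within groups of 4 arrays, 10 of 98 groups looked at had 1 array far from the other 3 by Dixon's criterion of gap over range. Of these 10, 5 were among the 22 groups of Schlafen probe sets. Chance alone gives about 1 in 20 for independent groups. The groups here share the same 8 arrays, so these counts do not show an excess over that rate. Mouse 1 accounted for 4 of the 5. Its primary tumour had Slfn2 at 11.29 against 12.89 to 13.08 in the others, Slfn4 at 8.05 against 9.22 to 9.37 and Slfn5 (1442640_at) at 5.74 against 6.26 to 6.34. Its metastasis had Slfn5 (1442640_at) at 5.46 against 6.07 to 6.13. Metastasis 2 had Slfn9 (1436472_at) at 6.13 against 7.04 to 7.13.

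Outside the family, Ang stood at 3.91 in primary tumour 2, S100a9 at 11.75 in metastasis 1 and Cd79b at 4.99 in primary tumour 2. Metastasis 4 had the flanking genes Unc45bos at 6.11 and Fndc8 at 6.40, each above the other 3.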

How the results depend on the processing

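Slfn2 kept its direction in all 20 alternatives (log2 fold -2.99 to -1.34) and its call in 16, and Slfn1 (1418612_at) its direction in 19 and its call in 7. Of 7214 probe sets called (3046 higher, 4168 lower), 0 remained past the threshold in either direction with the actin covariate, with 4552 at an unadjusted p under 0.05 by limma, and 0 Schlafen probe sets, with 2 unadjusted. With 1 probe set a gene 3975 were called, 1768 higher and 2207 lower. The calls numbered 2319 to 8439 when an array or mouse was left out (1034 to 3581 higher, 1285 to 4882 lower), and the Schlafen calls 0 to 3 (0 to 1 higher, 0 to 2 lower). Without dim probe sets 1 Schlafen probe set was called, since Slfn1 was no longer tested. Scaling to the 75th percentile gave 1 higher and 1 lower, and leaving out metastases 1 and 3 gave 1 call, with 1 higher and 0 lower. Directions turned for Slfn3 with the actin covariate (-1.17), without metastasis 4 (-0.07) and without mouse 4 (-0.09; -0.09 to 0.28 with an array or mouse left out), for Slfn5 (1458458_at) after scaling (0.08) and without mouse 2 (0.02; -0.23 to 0.02), for Slfn8 after quantile normalization (0.18), scaling (0.04), without metastasis 1 (0.29; -0.42 to 0.29), without mouse 1 (0.20) and without metastases 1 and 3 (0.13), and for Slfn9 (1436472_at) with the covariate (-0.94). The cause was not tested. With the mouse as a replicate block 5757 probe sets were called, 2265 higher and 3492 lower, and 2 Schlafen probe sets, so that the block changed no Schlafen call. The difference between gene pairs had 0 calls, also with arrays permuted within mice, where the smallest p is 0.125. The other lists, run without leaving out whole mice, had 0 calls with the actin covariate. Their counts otherwise stayed within 1.5 times, save those given beside them, 1 in place of 2 lower genes tied to Schlafen function without metastases 1 and 3, and 1 in place of 0 higher erythroid genes (scaled, or without metastasis 4) and endothelial genes (without metastasis 4).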
